A study of Homo sapiens with 9 samples.

Results

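The genes described here encode subunits of the mitochondrial respiratory chain and of ATP synthase, measured in a lung adenocarcinoma cell line after knockdown of the RNA demethylase ALKBH5. They were chosen by name. A gene was a member if its symbol began with NDUFA, NDUFB, NDUFC, NDUFS, NDUFV, UQCR, COX4, COX5, COX6, COX7, COX8 or ATP5, or was SDHA, SDHB, SDHC, SDHD or CYC1. The rule found 88 of the 17687 genes with a symbol, each read by 1 transcript cluster, the set of probes that reports 1 gene. Of these, 77 were counted as subunits (32 of complex I, 3 of complex II, 9 of complex III, 17 of complex IV and 16 of ATP synthase). The supercomplex factor COX7A2L was counted with complex IV. The other 11 carry a matching name without being a subunit. The 11 are 8 complex I assembly factors of the NDUFAF series, the ATP synthase inhibitor ATP5IF1, the readthrough locus ATP5MF-PTCD1 and the divergent transcript NDUFV1-DT.

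Complexes I to IV of the inner mitochondrial membrane pass electrons from NADH and succinate to oxygen, and complexes I, III and IV pump protons as they do so. ATP synthase lets the protons flow back through a rotating ring of c subunits and uses that rotation to make ATP. All but a few subunits are encoded in the nucleus, made in the cytosol and imported, and the catalytic cores are surrounded by many small accessory subunits needed for assembly and stability. The subunits encoded in mitochondrial DNA were not analysed here, nor was SDHB.

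PC9, an established human lung adenocarcinoma line with an activating EGFR mutation, was transfected with a control siRNA (siControl) or with 1 of 2 siRNAs against ALKBH5 (siALKBH5#1 and siALKBH5#3), each at 15 nM, and RNA was taken 96 h later. Each group had 3 samples on human Clariom S arrays, labelled as biological replicates. The use of a pair of sequences addressed the question of which changes follow the target and which follow 1 sequence. All groups received an siRNA, all came from the same line, and how the cultures of a group were kept separate is not given in the sources used here, so the p-values measure the spread between these samples only.

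ALKBH5 itself read 2815, 3308 and 2361 on the siControl arrays, 112, 96.7 and 113 with siALKBH5#1, and 56.8, 30.0 and 34.8 with siALKBH5#3. It was 26.2-fold lower with siALKBH5#1 and 71.8-fold lower with siALKBH5#3 (limma adjusted p = 6.49e-07 and 4.23e-08), and the siALKBH5#3 arrays were 2.74-fold below those of siALKBH5#1 (limma adjusted p = 0.000487). The array medians lay between 103 and 105. The epithelial genes EPCAM, KRT7, KRT8, KRT18, KRT19, CLDN4 and CDH1 read above 89.1% of the clusters on every array and ELF3 above 59.6%. The lung differentiation genes NKX2-1, NAPSA, SFTPB and SFTPC stayed in the lower 39.9% of clusters on all 9 arrays. The immune markers PTPRC, CD3E and LYZ reached at most the percentile 41.9, and the endothelial and fibroblast markers PECAM1, VWF, CDH5, COL1A1, COL1A2 and DCN at most 59.1.

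The members were mostly bright. In siControl cells 37 of the 88 were in the top 10% of all clusters, 79 were above the median cluster of the array on all 9 arrays, and 5 were below it on all 9. By percentile, the brightest of each complex in siControl cells were NDUFS6 (98.2), SDHA (93.0), UQCRC2 (98.8), COX8A (99.6) and ATP5PF (99.3), and the dimmest were NDUFS7 (45.5), SDHD (79.0), UQCRHL (54.7), COX6B2 (24.2) and ATP5MGL (37.6). Signal also depends on the probes, so these positions rank probe sets and not amounts of RNA. UQCRHL and ATP5MGL are near copies of UQCRH and ATP5MG, ATP5MF-PTCD1 contains ATP5MF sequence, and probes for such pairs may read both.

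Nuclear genes of the respiratory chain are known for promoters with sites for the factors NRF1, the ETS protein GABP and YY1. The RefSeq tables (GRCh38.p14) held a promoter window, 250 bases before to 50 after the start, for 71 of the 88 members. The letters GCGCATGC (NRF1 core), CCGGAAGT (ETS) and AAGATGGC (YY1 core) were searched on both strands in the window of the start listed first. The NRF1 letters stood in 14 of the 71 windows (19.7%, against 3.27% of the 27305 genes with a window), the ETS letters in 8 (11.3% against 4.44%) and the YY1 letters in 9 (12.7% against 3.03%). TGATGCAA, a composite site of C/EBP and ATF factors, was in 0 of the 71 (0.923% of all genes). At least 1 of the first 3 was in 26 of the 71 (36.6%, against 9.94% of all genes and 13.2% of the array genes). Against the 14250 array genes with a window, the shares were 4.25%, 6.24% and 3.96%. Matches on opposite strands can share bases, as those of NRF1 do in SDHD and NDUFB4, overlaps between motifs were not removed, and a match is only a run of letters.

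The 250 bases before the start follow for 5 members that were lower with siALKBH5#3, with motif matches in capitals, to set a window without a match (COX7B) beside windows with 1 or more. They are COX7B (chrX:77899218-77899467, plus strand), SDHD (chr11:112086623-112086872, plus), COX8A (chr11:63974370-63974619, plus), NDUFB4 (chr3:120596086-120596335, plus) and ATP5PF (chr21:25735055-25735304, minus), each written 5′ to 3′ on the strand of the gene. SDHD has NRF1 matches on both strands from 110 bases before the start and an ETS match 78 bases before it. COX8A has an ETS match 19 bases before the start. NDUFB4 has NRF1 matches on both strands from 159 bases before it, and ATP5PF an NRF1 match at 120 and a YY1 match at 57.
COX7B: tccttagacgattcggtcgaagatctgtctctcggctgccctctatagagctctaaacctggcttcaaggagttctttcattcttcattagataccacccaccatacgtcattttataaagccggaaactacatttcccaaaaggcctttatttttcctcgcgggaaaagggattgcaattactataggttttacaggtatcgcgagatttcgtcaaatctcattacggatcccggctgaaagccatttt
SDHD: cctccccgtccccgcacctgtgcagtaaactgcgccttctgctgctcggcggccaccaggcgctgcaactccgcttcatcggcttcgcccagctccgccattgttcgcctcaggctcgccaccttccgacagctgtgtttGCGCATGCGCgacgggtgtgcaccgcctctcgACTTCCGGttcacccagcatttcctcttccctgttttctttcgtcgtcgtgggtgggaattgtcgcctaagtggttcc
COX8A: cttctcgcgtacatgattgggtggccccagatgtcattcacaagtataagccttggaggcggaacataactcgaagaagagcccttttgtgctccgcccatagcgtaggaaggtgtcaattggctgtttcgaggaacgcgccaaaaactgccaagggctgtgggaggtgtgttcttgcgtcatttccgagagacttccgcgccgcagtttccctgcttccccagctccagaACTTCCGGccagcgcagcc
NDUFB4: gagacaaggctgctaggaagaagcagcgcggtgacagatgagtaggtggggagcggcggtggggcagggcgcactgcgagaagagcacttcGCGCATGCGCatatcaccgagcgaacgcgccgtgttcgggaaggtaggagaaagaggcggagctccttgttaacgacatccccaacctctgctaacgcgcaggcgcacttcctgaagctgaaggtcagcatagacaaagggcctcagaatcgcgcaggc
ATP5PF: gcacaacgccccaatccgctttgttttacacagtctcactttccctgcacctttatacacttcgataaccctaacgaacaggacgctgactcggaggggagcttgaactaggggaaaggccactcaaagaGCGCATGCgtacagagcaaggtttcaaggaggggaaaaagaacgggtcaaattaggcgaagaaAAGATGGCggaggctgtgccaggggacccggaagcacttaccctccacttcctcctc

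With siALKBH5#3, 20 of the 88 genes were lower than in siControl cells and 0 were higher, at an adjusted p under 0.05 in limma. At an unadjusted p under 0.05, 38 were lower and 1, COX4I1, was higher, and how many of all clusters were so was not counted. The methods' t-test after adjustment called 15 members lower and 0 higher, and 572 of all clusters lower and 730 higher. Across all 21448 clusters of the array, limma called 15.8% at an adjusted p under 0.05, 7.04% lower and 8.72% higher. The share of members that limma called lower (22.7%) was above that of the array and the share called higher was below it. The 20 were 8 subunits of complex I, SDHD of complex II, UQCRB of complex III, 4 subunits of complex IV and 6 of ATP synthase. The median change over the 88 genes was -0.23 on the log2 scale against -0.015 over all genes. Of the 88 changes 69 were below 0 (78.4%), against 52.1% of all genes. In 41 of the 88 genes all 3 siALKBH5#3 arrays read below all 3 siControl arrays, which was so for 15.8% of all clusters. The arrays measured RNA of whole cultures, and fewer cells with a transcript and less transcript per cell cannot be told apart.

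**Figure D1:**
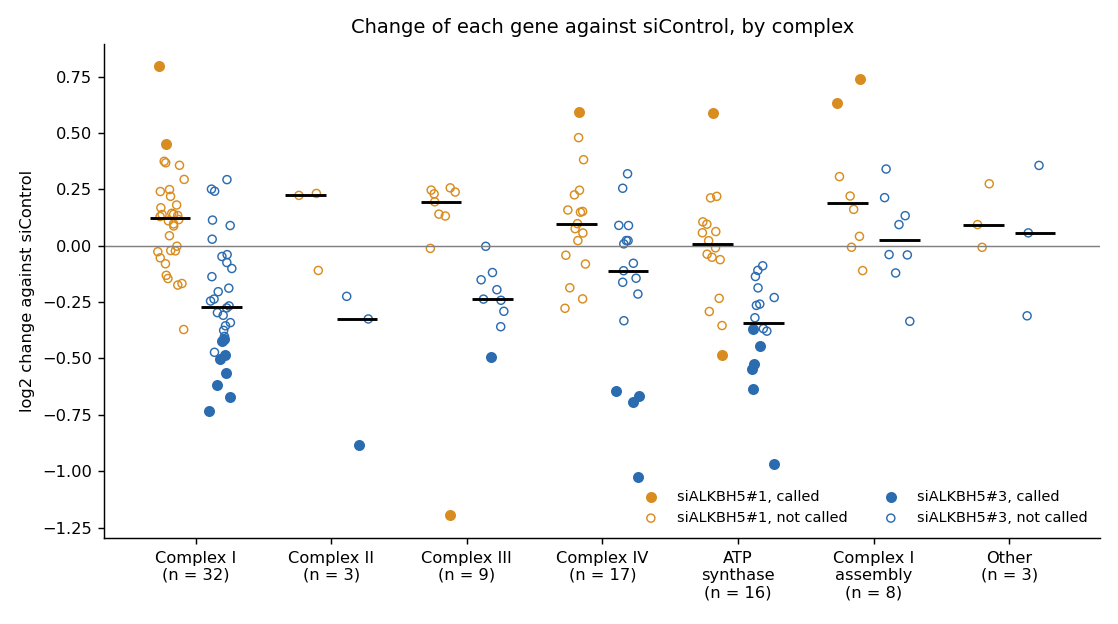
Change of each of the 88 genes against siControl on the log2 scale, by complex, for siALKBH5#1 (orange) and siALKBH5#3 (blue). Filled points were called in limma (adjusted p under 0.05), open points were not, and black bars are medians. The blue medians lie below 0 in each of complexes I to IV and ATP synthase (-0.11 to -0.34), the orange medians at or above 0.

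The members were bright, and bright genes were called lower more often than the array as a whole. Among the 1827 genes in the top 10% of siControl signal, 15.5% were lower with siALKBH5#3, against 13 of the 37 members there (35.1%). All 3 siALKBH5#3 arrays read below all 3 siControl arrays for 526 of those 1827 genes and for 23 of those 37 members. Of the 5 members below the median cluster on every array, 0 were called. The part of signal level in the count was not tested.

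Complex I takes electrons from NADH, through a matrix arm, to ubiquinone at the membrane arm. With siALKBH5#3, 8 of its 32 measured subunits were lower, 0 were higher, and the median change was -0.27. NDUFB2, an accessory subunit of the membrane arm, read 650, 588 and 535 in siControl cells, 477, 406 and 487 with siALKBH5#1, and 345, 359 and 360 with siALKBH5#3. The groups were in order with no overlap, siControl highest and siALKBH5#3 lowest. NDUFB2 was 1.66-fold lower with siALKBH5#3 (95% interval 1.38 to 2.00, limma adjusted p = 0.00183), while its difference with siALKBH5#1 (-0.37 ± 0.12, SE) did not pass (limma adjusted p = 0.0867).

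NDUFB3, another membrane arm subunit, read 1891, 1752 and 1714 with siControl, 1818, 1881 and 1405 with siALKBH5#1, and 1157, 1165 and 1043 with siALKBH5#3. The siALKBH5#3 arrays were the lowest of the 9, and the other groups overlapped. Its fold was 1.59 lower with siALKBH5#3 (limma adjusted p = 0.00512). NDUFB4 and NDUFB5, of the same arm, also read lowest on the siALKBH5#3 arrays, while the siALKBH5#1 arrays overlapped siControl for NDUFB4 and lay above it for NDUFB5. NDUFB4 fell from 16438 ± 1116 to 10692 ± 591 (SD, n = 3), 1.54-fold, and NDUFB5 from 15426 ± 1142 to 10873 ± 222, 1.42-fold (limma adjusted p = 0.00283 and 0.0085).

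Of the 11 NDUFB genes, 4 were lower with siALKBH5#3 and the median was -0.36. In the matrix arm, NDUFA5 fell by 0.56 on the log2 scale and NDUFA9 by 0.48. NDUFA8, an accessory subunit, fell by 0.42, and NDUFS3, a subunit of the catalytic core, also by 0.42. These 4 had limma adjusted p-values of 0.00943, 0.0158, 0.0223 and 0.0276. Of the 3 NDUFV genes of the NADH-binding module none was called, and their median was -0.05. NDUFV1, which carries the flavin site, read 10829, 11088 and 10440 with siControl and 10668, 9765 and 10301 with siALKBH5#3, groups that overlapped (95% interval of the ratio 0.808 to 1.12). NDUFV2 was the most variable of them, from 2358 to 4761 among the siControl arrays alone.

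Complex II, succinate dehydrogenase, also serves the citric acid cycle. SDHD, an anchor of the complex in the membrane (chr11:112086873-112095794, GRCh38.p14), read 1467, 1235 and 1192 in siControl cells, 1429, 1473 and 1661 with siALKBH5#1, and 673, 732 and 695 with siALKBH5#3. The siALKBH5#3 arrays were far below the other 6. SDHD was 1.85-fold lower than in siControl cells (95% interval 1.53 to 2.23, limma adjusted p = 0.000587) and 2.17-fold lower than with siALKBH5#1 (1.80 to 2.61, limma adjusted p = 6.14e-05). SDHC, the other anchor, had a change of -0.32 against siControl that did not pass (limma adjusted p = 0.112), and the catalytic flavoprotein subunit SDHA of -0.22 (limma adjusted p = 0.225). In both, all siALKBH5#3 arrays were below all siControl arrays.

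Complex III passes electrons from ubiquinol to cytochrome c. All 9 changes with siALKBH5#3 were below 0, from -0.49 to -0.0028, but UQCRB alone was called. UQCRB, a small subunit at the ubiquinone binding region, read 3046, 3268 and 2881 with siControl, 1580, 1123 and 1342 with siALKBH5#1, and 1913, 2222 and 2425 with siALKBH5#3. Here the lowest arrays were those of siALKBH5#1, and the 3 groups did not overlap. The fold was 1.41 lower with siALKBH5#3 (limma adjusted p = 0.0402) and 2.29 lower with siALKBH5#1 (95% interval 1.84 to 2.86, limma adjusted p = 0.000449). The core proteins UQCRC1 and UQCRC2 had changes of -0.36 and -0.29 with siALKBH5#3 (limma adjusted p = 0.0658 and 0.111), and the heme-carrying CYC1 of -0.24 (limma adjusted p = 0.300).

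**Figure D2:**
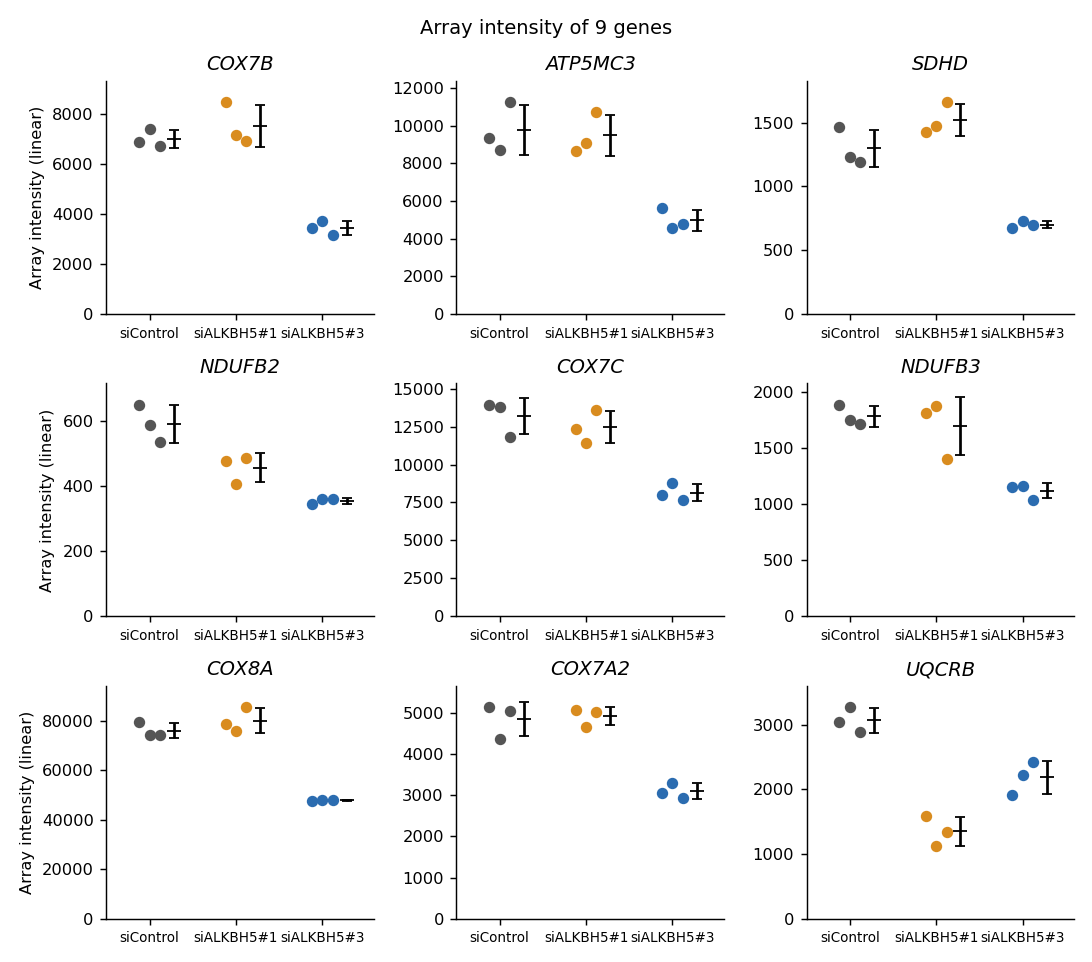
Array intensity, on linear axes from 0, of the 8 members with the largest falls under siALKBH5#3 and of UQCRB. Coloured points are single arrays, and the black mark and bar give the mean and SD of 3 arrays. In the first 8 panels the siALKBH5#3 arrays are the lowest, whereas in the UQCRB panel the siALKBH5#1 arrays are.

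Complex IV, cytochrome c oxidase, hands the electrons to oxygen. Of the 17 nuclear genes counted with it, 4 were lower with siALKBH5#3, 0 were higher, and the median was -0.11. COX7B (chrX:77899468-77907376) read 6884, 7420 and 6733 in siControl cells, 8480, 7155 and 6943 with siALKBH5#1, and 3436, 3740 and 3176 with siALKBH5#3. No siALKBH5#3 array came near the other 6. It had the largest fall of the 88 genes, 2.03-fold against siControl (95% interval 1.69 to 2.45, limma adjusted p = 0.000214) and 2.18-fold against siALKBH5#1 (1.81 to 2.62, limma adjusted p = 6.11e-05).

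The other 3 were COX7C, COX8A and COX7A2, each also a small subunit within the membrane. COX8A, the brightest member, read 79456, 74283 and 74056 with siControl, 78820, 75876 and 85480 with siALKBH5#1, and 47453, 48159 and 47800 with siALKBH5#3, a fall of 1.59-fold (limma adjusted p = 0.00147). COX7C went from 13192 ± 1180 to 8137 ± 558 and COX7A2 from 4850 ± 420 to 3102 ± 186 (SD, n = 3), 1.62-fold and 1.56-fold lower (limma adjusted p = 0.00249 and 0.00285). With siALKBH5#1 these 3 genes had changes of -0.08, 0.08 and 0.02, none called.

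Several subunits of complex IV exist as tissue isoforms. COX7A2 is the widely expressed form and COX7A1 the form of heart and muscle. COX7A1 lay at percentile 46.3, with siControl arrays at 86.2, 78.0 and 69.3, and had a change of 0.02 with siALKBH5#3. COX8C, a form known from testis, was also dim (88.1 to 106 in siControl cells) and had a change of -0.14. COX6A1, the general form of its subunit, was bright and nearly flat (27585 ± 411 against 25551 ± 932, not called), and its muscle form COX6A2 ranged from 195 to 335 among the siControl arrays. COX6B1 read below siControl on all 3 siALKBH5#3 arrays without passing (-0.33, limma adjusted p = 0.0577), and the testis form COX6B2 was at the dim end.

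COX4I1, the general form of the largest nuclear subunit, ran the other way. It read 1169, 1430 and 1421 in siControl cells, 1999, 1603 and 1639 with siALKBH5#1, and 1622, 1708 and 1665 with siALKBH5#3. Both knockdowns read above all siControl arrays, but neither difference passed (0.38 and 0.32, limma adjusted p = 0.0974 and 0.125). COX4I2, the form associated with lung and low oxygen, was dim at 28.1 to 31.7 and flat. COX5A, COX5B and the supercomplex factor COX7A2L had changes of -0.08, 0.0081 and 0.02 with siALKBH5#3. NDUFA4, counted in complex IV today, was not analysed here.

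ATP synthase genes all lay on the same side. All 16 genes had a change below 0 with siALKBH5#3, as did 52.1% of all genes. Of the 16, 6 were called lower, 11 had all 3 arrays below all siControl arrays, and the median was -0.34. ATP5MC3 (chr2:175176258-175181710) read 9333, 8703 and 11244 with siControl, 8673, 9067 and 10738 with siALKBH5#1, and 5613, 4550 and 4794 with siALKBH5#3. The siALKBH5#3 arrays were all below the rest, a 1.95-fold fall (95% interval 1.58 to 2.42, limma adjusted p = 0.000845).

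ATP5MC3 is 1 of 3 genes, with ATP5MC1 and ATP5MC2, that encode the same mature c subunit of the rotor ring behind different import sequences. ATP5MC2 read 26289, 22026 and 24968 with siControl, 18197, 19711 and 21966 with siALKBH5#1, and 19329, 16165 and 15570 with siALKBH5#3. It was below siControl on all arrays of both knockdowns, 1.44-fold with siALKBH5#3 (limma adjusted p = 0.0187) and 1.22-fold with siALKBH5#1, the latter not called (limma adjusted p = 0.21). ATP5MC1 read 18267, 16936 and 19673 with siControl, 27231, 27797 and 27402 with siALKBH5#1, and 18056, 15523 and 17292 with siALKBH5#3. It was 1.5-fold higher with siALKBH5#1 (95% interval 1.27 to 1.79, limma adjusted p = 0.00853) and overlapped siControl with siALKBH5#3.

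Of the catalytic head, ATP5F1A (alpha) fell from 5514 ± 347 to 3545 ± 27.4 (SD, n = 3) with siALKBH5#3, 1.55-fold (limma adjusted p = 0.00211). ATP5F1B (beta), the partner of alpha in the head, had the smallest change of the complex with siALKBH5#3 (-0.09, limma adjusted p = 0.661), and its siControl and siALKBH5#3 arrays overlapped. With siALKBH5#1, ATP5F1A was near siControl (-0.06), and ATP5F1B read 45571, 42422 and 38775, below all siControl arrays (53401, 55561 and 52764), without passing (limma adjusted p = 0.0801). ATP5F1C, the gamma subunit of the central stalk, was lower with siALKBH5#1 (1.40-fold, 95% interval 1.16 to 1.69, limma adjusted p = 0.0313), and its change of -0.26 with siALKBH5#3 did not pass.

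In the peripheral stalk, ATP5PF (subunit F6) was 1.46-fold lower and ATP5PO (the oligomycin sensitivity subunit) 1.36-fold lower with siALKBH5#3 (limma adjusted p = 0.0167 and 0.0248). The stalk subunits ATP5PB and ATP5PD had changes of -0.37 and -0.23 that did not pass (limma adjusted p = 0.0626 and 0.245). ATP5MF, a small membrane subunit, was called at the edge of the threshold (-0.37, limma adjusted p = 0.0472).

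Calls near the threshold were easily lost. Of the 20 genes called lower with siALKBH5#3, 12 stayed called whichever of the 9 arrays was left out, COX7B, ATP5MC3, SDHD, NDUFB2, COX7C, NDUFB3, COX8A, COX7A2, ATP5F1A, NDUFB4, NDUFA5 and NDUFB5. ATP5MF was lost without any 1 of the 9 arrays (adjusted p up to 0.16) and UQCRB without 6 of them (up to 0.14). NDUFA9 was lost without siALKBH5#3 replicate 1 or 3 (up to 0.057). ATP5PF was lost without siALKBH5#3 replicate 1 or 3 or siControl replicate 3 (up to 0.060), and ATP5MC2 without siALKBH5#3 replicate 2 or 3 or siControl replicate 1 (up to 0.074). ATP5PO, NDUFS3 and NDUFA8 were each lost in 4 of the 9 cases (up to 0.090, 0.093 and 0.091).

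Few changes were seen with siALKBH5#3 in the members that are not subunits. None of the 8 NDUFAF assembly factors was called, and their median change was 0.03. ATP5IF1, which inhibits ATP synthase when it runs in reverse, had a change of -0.31 that did not pass (limma adjusted p = 0.123). NDUFV1-DT was dim and flat.

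With siALKBH5#1, 8 of the 88 genes differed from siControl, 6 higher and 2 lower. On the whole array 8.07% of clusters were called, 4.51% higher and 3.56% lower, so the shares of members called were near those of the array. The ranges of the arrays differed more from the whole array, and upward. Every siALKBH5#1 array read above every siControl array for 24 of the 88 genes, against 3098 of the 21448 clusters. Every siALKBH5#1 array read below every siControl array for 7 of the 88 genes, against 2675 of the 21448 clusters. The part of signal level in these counts was not tested. The median change was 0.11, against -0.0059 over all genes. A change above 0 was seen in 58 of the 88 members and in 8683 of the 17687 genes with a symbol. The 2 lower genes were UQCRB and ATP5F1C. The 6 higher were ATP5MC1, the complex I subunits NDUFS7 and NDUFB9, the assembly factors NDUFAF2 and NDUFAF7, and COX7B2, a testis form of COX7B.

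NDUFAF2, an assembly factor of complex I, read 320, 482 and 561 in siControl cells, 639, 752 and 838 with siALKBH5#1, and 501, 469 and 484 with siALKBH5#3. Only the siALKBH5#1 arrays stood apart, 1.67-fold higher (95% interval 1.26 to 2.21, limma adjusted p = 0.0316). NDUFAF7, a methyltransferase that acts on the core of complex I, rose from 517 ± 58.7 to 804 ± 112 (SD, n = 3), 1.55-fold (limma adjusted p = 0.0426). NDUFS7, a core subunit with an iron-sulfur cluster, read 92.7, 56.0 and 77.1 with siControl and 117, 121 and 148 with siALKBH5#1. It was 1.73-fold higher (limma adjusted p = 0.016) at a signal that lay below the array median in siControl cells. COX7B2 lay close to the array median (118 ± 14.9 against 178 ± 21.5, limma adjusted p = 0.0297), and NDUFB9 bright (9271 ± 834 against 12627 ± 231, limma adjusted p = 0.0357).

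Most of these calls rested on all arrays being present. ATP5MC1 and UQCRB stayed called without any 1 array (adjusted p up to 0.035 and 0.0033). NDUFS7 was lost without siALKBH5#1 replicate 3 (0.069). NDUFAF2, COX7B2, ATP5F1C, NDUFB9 and NDUFAF7 were lost in 4, 5, 6, 6 and 7 of the 9 cases (up to 0.11, 0.11, 0.11, 0.11 and 0.15). The count of 8 fell to 2 without siALKBH5#1 replicate 3, to 3 without siALKBH5#1 replicate 2 or siControl replicate 1, and to 4 without siALKBH5#1 replicate 1 or siControl replicate 2.

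Compared directly, 39 of the 88 genes differed between the siRNAs, 38 lower with siALKBH5#3 and 1, UQCRB, higher. On the array 19.1% of clusters were called in this comparison, 9.55% lower and 9.55% higher. All 3 siALKBH5#3 arrays read below all 3 siALKBH5#1 arrays for 52 of the 88 genes, against 17.9% of all clusters. In the top 10% of siControl signal this was so for 653 of 1827 genes and for 27 of 37 members. Of these bright genes 19.8% were called lower, and of the bright members 51.4%. The part of signal level in these counts was not tested. The median difference was -0.35, against -0.00037 over all genes. The 39 were 16 of the 32 complex I subunits, 2 of 3 in complex II, 3 of 9 in complex III, 6 of 17 in complex IV, 9 of 16 in ATP synthase, 2 of the 8 assembly factors and ATP5IF1. The comparisons against siControl share their control arrays, and this direct one does not use them in its means.

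The largest differences were those of COX7B (-1.12 ± 0.12, SE), SDHD (-1.12 ± 0.12) and ATP5MC3 (-0.93 ± 0.14). NDUFB8, a membrane arm subunit of complex I, followed, with 1864, 1739 and 2045 under siALKBH5#1 and 1038, 1049 and 1236 under siALKBH5#3, while siControl read 1447, 1309 and 1900. The arrays of siALKBH5#3 were 1.70-fold below those of siALKBH5#1 (95% interval 1.35 to 2.14, limma adjusted p = 0.00345), and neither knockdown differed from siControl by the test (limma adjusted p = 0.273 and 0.0542). NDUFAF7 (-0.76 ± 0.17), COX8A (-0.74 ± 0.11), ATP5MC1 (-0.70 ± 0.11) and NDUFB5 (-0.68 ± 0.11) came next. Over all 88 genes, 43 had siALKBH5#1 above siControl and siALKBH5#3 below it. How many of all genes on the array did so was not counted. Of the 39, which were picked by the difference itself, 28 did, and UQCRB was below siControl with both.

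**Figure D3:**
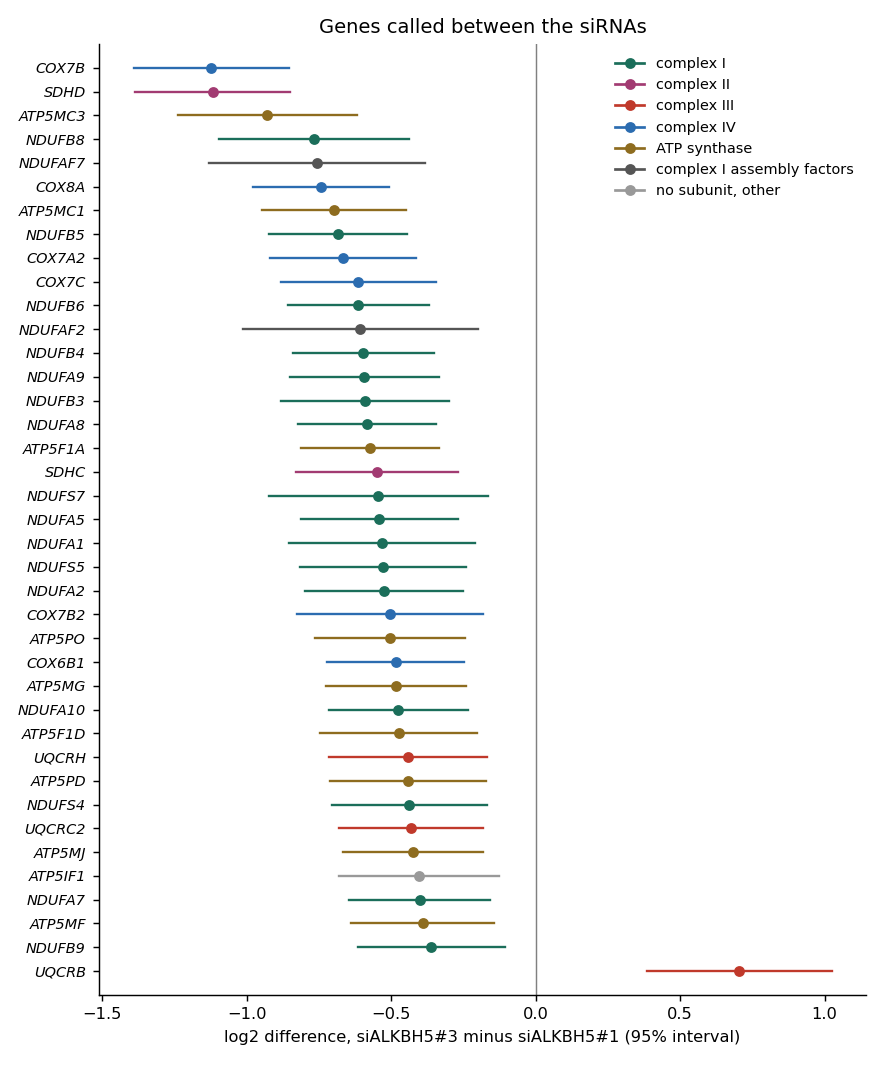
Difference between siALKBH5#3 and siALKBH5#1 on the log2 scale for the 39 members called in that comparison, with 95% intervals from limma, coloured by complex. Of the 39, 38 lie below 0, from NDUFB9 (-0.36) to COX7B (-1.12), and UQCRB lies above it (0.70).

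The shift was of like size on the arrays of a group. Taken as the median over the 88 genes of log2 intensity minus the siControl mean, it was 0.01, -0.0027 and 0.01 on the siControl arrays, 0.13, 0.08 and 0.11 with siALKBH5#1, and -0.21, -0.22 and -0.24 with siALKBH5#3. The groups did not overlap, and the arrays of siALKBH5#3 lay farther from siControl than those of siALKBH5#1. On the same arrays the median over all genes stayed between -0.02 and 0.0087. With siALKBH5#3, 65, 66 and 69 of the 88 genes read below the siControl mean.

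**Figure D4:**
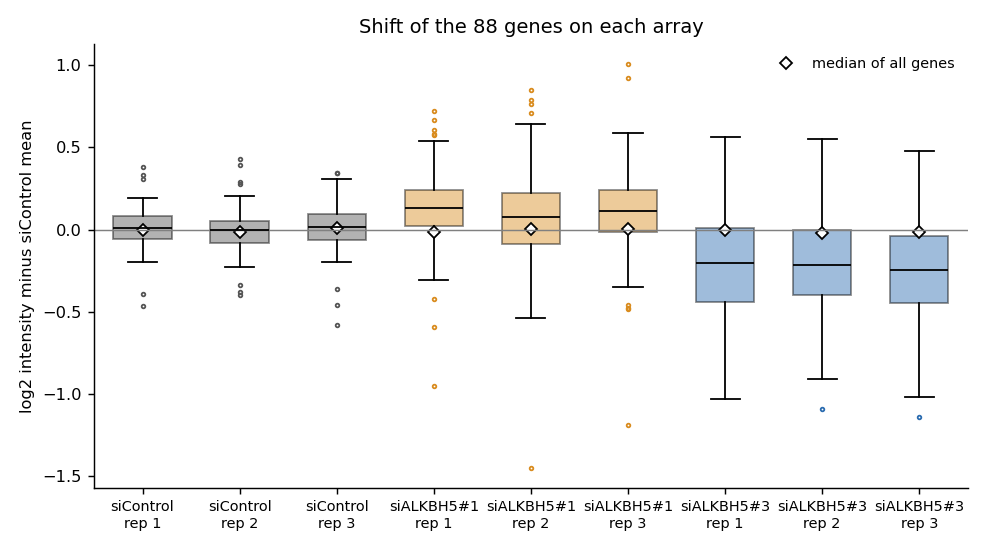
Distribution over the 88 genes of log2 intensity minus the siControl mean on each of the 9 arrays. Boxes give the quartiles and the median, whiskers reach to 1.5 box lengths, dots are genes beyond them, and diamonds mark the median of all genes. The siALKBH5#3 medians (-0.21 to -0.24) lie below 0 and the siALKBH5#1 medians (0.08 to 0.13) above it, while the diamonds stay near 0.

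Promoter letters were set beside the calls as a description. Of the 16 genes lower with siALKBH5#3 that had a window, 8 held at least 1 of the NRF1, ETS and YY1 letters, among them SDHD, COX8A, NDUFB4 and ATP5PF shown above, and of the other 55 windows 18 did (32.7%). The windows of COX7B, NDUFB2, COX7C, NDUFB3, COX7A2, ATP5F1A, NDUFA5 and NDUFS3 held none of them. Each was the window of the start listed first, and any other start of a gene was not counted.

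For 21 members the window overlapped that of a gene on the opposite strand that is no member and was measured. This look at neighbours was chosen after the values were seen. Of the 21 neighbours, 1 was lower and 2 were higher with siALKBH5#3, numbers near the 7.04% and 8.72% of all clusters. The lower one was GABPA, the DNA-binding subunit of GABP, which lies head to head with ATP5PF and fell by 0.52 on the log2 scale (limma adjusted p = 0.0381) beside -0.55 for ATP5PF. The higher were CEBPZ, next to NDUFAF7 (0.54, limma adjusted p = 0.0254), and KCTD2, next to ATP5PD (0.52, limma adjusted p = 0.0343), while neither member was called. HAUS1 and KBTBD4, the neighbours of ATP5F1A and NDUFS3, were not called. ASB15 and MORN5, beside NDUFA5 and NDUFA8, read 35.4 and 22.3 in siControl cells, far below the array median, and were not called either, which says little at such a signal. With siALKBH5#1, ERCC8, a DNA repair gene beside NDUFAF2, was higher (0.69, limma adjusted p = 0.0418), as NDUFAF2 was, and so was KCTD2 (0.55, limma adjusted p = 0.0431).

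Genes that work around the respiratory chain were read from lists by function. On the whole array, 15.8% of clusters were called with siALKBH5#3, 8.07% with siALKBH5#1 and 19.1% between the siRNAs. Of 45 measured assembly factors for the complexes beyond the NDUFAF series, 8 were lower and 2 higher with siALKBH5#3, a median of -0.10. The share called was 22.2%. The lower ones with the largest changes were LYRM7 (-0.73, a complex III factor), COA5 (-0.72) and SDHAF3 (-0.70, a complex II factor), and the higher were SURF1 (0.58) and COA8 (0.57), both of complex IV. With siALKBH5#1, 6 were higher, COA8 among them (0.57, limma adjusted p = 0.0254), and 2 lower. COX17, a copper chaperone of complex IV, read 2299 ± 299 in siControl cells and 817 ± 81.8 with siALKBH5#1 (SD, n = 3), a change of -1.49 (limma adjusted p = 0.000217), and COA5 was also lower with this siRNA (-0.84). Between the siRNAs, COA6 (-1.19) and SDHAF3 (-1.15) were lower with siALKBH5#3, and COX17 higher (1.12). Against siControl, COA6 was higher with siALKBH5#1 (0.66, limma adjusted p = 0.011) and lower with siALKBH5#3 (-0.53, limma adjusted p = 0.0177). SDHAF3 likewise was higher with siALKBH5#1 (0.45, limma adjusted p = 0.0495) and lower with siALKBH5#3 (limma adjusted p = 0.00284).

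Of 21 genes for coenzyme Q, cytochrome c and other entry points of electrons, 6 were lower and 1 higher with siALKBH5#3, with a median of -0.26. The share called was 33.3%, against 15.8% of all clusters. SQOR, which feeds electrons from sulfide, fell by 0.81 on the log2 scale, GPD2, the mitochondrial glycerol phosphate dehydrogenase, by 0.57, and CYCS, the cytochrome c gene, by 0.36 at the edge of the threshold (limma adjusted p = 0.0498). PDSS1, of coenzyme Q side chain synthesis, was higher with both siRNAs (0.59 with siALKBH5#1 and 0.56 with siALKBH5#3). Between the siRNAs, 10 of the 21 were lower with siALKBH5#3 and 0 higher.

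Of 20 genes of pyruvate dehydrogenase and the citric acid cycle, 3 were lower and 0 higher with siALKBH5#3. The share called, 15%, was near the 15.8% of all clusters, of which 7.04% were called lower. They were the kinases PDK3 and PDK4, which switch pyruvate dehydrogenase off, and DLAT, its E2 subunit. PDK4 was dim, at 29.4 ± 8.66 in siControl cells (percentile 28.1) and 15.6 ± 0.265 with siALKBH5#3 (SD, n = 3), so its call says little. The brighter kinases PDK1 (-0.22) and PDK2 (-0.08) were not called. PDK3 read 237 ± 7.46 in siControl cells, 236 ± 37.1 with siALKBH5#1 and 84.5 ± 14.8 with siALKBH5#3 (-1.50, limma adjusted p = 6.61e-05). With siALKBH5#1, 0 of the 20 were called.

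Of 19 regulators of mitochondrial gene expression, PPRC1, a coactivator, was higher with siALKBH5#3 (0.82, limma adjusted p = 0.000968), as was NRF1 (0.45, limma adjusted p = 0.0335), and GABPA was lower. The share called was 15.8%, the same as over all clusters. With siALKBH5#1 none of the 19 was called. Of 17 carriers and inner membrane proteins, VDAC2 (-0.41) and MICOS10 (-0.40) were lower with siALKBH5#3 and 0 were higher. The share called was 11.8%, against 15.8% of all clusters, of which 7.04% were called lower. These 17 include ATP5IF1, which is also 1 of the 88 members. With siALKBH5#1, VDAC3 (0.65, limma adjusted p = 0.0359) and APOO (0.49, limma adjusted p = 0.0490) were higher and 1 was lower. SLC25A4, the adenine nucleotide carrier of heart and muscle, was that gene (2222 ± 145 against 832 ± 164, SD, n = 3, -1.44, limma adjusted p = 0.000136) and differed between the siRNAs (1.48, limma adjusted p = 3.32e-05).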

How the data were processed

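RNA from PC9 cells was measured on 9 Clariom S arrays, 3 for each of the 3 groups given by the sample titles. The deposited values are linear intensities, 1 per transcript cluster and array. Per the submitters' processing notes the authors used RMA in Affymetrix Expression Console with the hg38 build, whereas the published methods name the Microarray Data Analysis Tool of Filgen, so the step that set the final scale is not settled. RMA brings the arrays to a common distribution, so a change in total RNA per cell is not visible.

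Of 24351 entries, 2903 control probe sets were left out and 21448 clusters were tested. The log2 of the intensity was fitted in limma 3.58.1 (R 4.3.3) with a mean for each group over all 9 arrays and moderated by eBayes (6 residual and 5.79 prior degrees of freedom). Tests were two-sided, and p-values were adjusted by Benjamini-Hochberg over all clusters and called under 0.05. Folds are ratios of geometric means, with 95% intervals. The number of arrays limits the precision, and no detection calls were used. The code was tested on simulated data. Genes were named through the platform annotation, and all 88 members had the same symbol in RefSeq (GRCh38.p14), which gave coordinates and promoters.

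The members and lists were chosen with earlier results of these data known. Any member could be named. Full values were meant for called members (at most 8 in each direction per comparison), for isoform pairs and for ALKBH5, and up to 3 called genes in each direction were named from each other list. Alternatives changed the replicate block, the arrays fitted, the variance model, the normalization, a filter, an offset, the threshold and each array in turn, and added the t-test of the study's methods.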

Additional observations from a re-analysis of the deposited data

Results flagged for a closer look

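The 39 members whose response differed between the siRNAs, by the direct limma test of siALKBH5#3 against siALKBH5#1, are given with the log2 difference. In complex I they were NDUFB8 (-0.77), NDUFB5 (-0.68), NDUFB6 (-0.61), NDUFB4 (-0.60), NDUFA9 (-0.59), NDUFB3 (-0.59), NDUFA8 (-0.58), NDUFS7 (-0.54), NDUFA5 (-0.54), NDUFA1 (-0.53), NDUFS5 (-0.53), NDUFA2 (-0.52), NDUFA10 (-0.48), NDUFS4 (-0.44), NDUFA7 (-0.40) and NDUFB9 (-0.36). In complex II they were SDHD (-1.12) and SDHC (-0.55), and in complex III UQCRH (-0.44), UQCRC2 (-0.43) and UQCRB (0.70). In complex IV they were COX7B (-1.12), COX8A (-0.74), COX7A2 (-0.67), COX7C (-0.61), COX7B2 (-0.50) and COX6B1 (-0.48). In ATP synthase they were ATP5MC3 (-0.93), ATP5MC1 (-0.70), ATP5F1A (-0.57), ATP5PO (-0.50), ATP5MG (-0.48), ATP5F1D (-0.47), ATP5PD (-0.44), ATP5MJ (-0.43) and ATP5MF (-0.39). The rest were the assembly factors NDUFAF7 (-0.76) and NDUFAF2 (-0.61) and the inhibitor ATP5IF1 (-0.40). ALKBH5 was itself lower with siALKBH5#3 than with siALKBH5#1 (-1.45), and its part in these differences was not tested.

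Of the 39, 23 stayed called whichever array was left out. The other 16 lost the call without at least 1 siALKBH5 array, NDUFB9 also without siControl replicate 2 and NDUFS7 also without siControl replicate 3. Their highest adjusted p-values were 0.12 for ATP5MF, 0.077 for UQCRC2, 0.057 for NDUFS5, 0.15 for NDUFB9, 0.078 for ATP5MJ, 0.10 for ATP5PD, 0.10 for NDUFA1, 0.11 for UQCRH, 0.084 for ATP5F1D, 0.052 for NDUFA2, 0.15 for ATP5IF1, 0.10 for NDUFS4, 0.094 for NDUFA7, 0.14 for NDUFAF2, 0.13 for COX7B2 and 0.165 for NDUFS7.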

How the results depend on the processing

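No gene called in any comparison changed its sign under the settings run. With siALKBH5#3 against siControl the count of 20, all lower, became 34 with an intensity trend and robust prior, 12 at an adjusted p under 0.01 and 10 with the methods' t-test at the methods' threshold (p under 0.01 and a fold above 1.5 or below 0.67). Leaving out 1 array gave 14 to 19. Over all clusters the trend and robust prior called 2395 higher and 1866 lower with siALKBH5#3, against 1870 and 1511 in the main fit. With siALKBH5#1 the count of 8 became 5 with only the 6 arrays compared. It became 14 with the trend and robust prior and 13 with an offset of 50. With the brighter 50% of the clusters it was 14 of the 82 members measured. It was 2 with the methods' t-test after Benjamini-Hochberg adjustment, 2 at the methods' threshold, 2 at an adjusted p under 0.01, and 2 to 8 without 1 array. The calls over all clusters moved too, from 967 higher and 764 lower of 21448 in the main fit. They were 683 and 515 with only the 6 arrays, 1500 and 1104 with the trend and robust prior, and 1388 and 950 with the offset. The brighter 50% gave 1477 and 995 of 11115 clusters, and the adjusted t-test 191 and 133 of 21448. Between the siRNAs the count of 39 became 23 with the methods' t-test after adjustment and 14 at its own threshold. It was 22 at an adjusted p under 0.01, and 26 to 40 without 1 array. Over all clusters the adjusted t-test called 1348 higher and 1324 lower between the siRNAs, against 2048 and 2049 in the main fit. The cause of these moves was not tested.

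The median change kept its sign in every setting. With siALKBH5#1 it was 0.073 under quantile normalization against 0.11, and 0.09 to 0.12 without 1 array. With siALKBH5#3 it was -0.26 under quantile normalization against -0.23, and -0.26 to -0.21 without 1 array. Between the siRNAs it was -0.38 with the brighter 50% and -0.37 with subunits only against -0.35, and -0.37 to -0.34 without 1 array. No member had more than 1 cluster, so averaging clusters changed nothing.

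The replicate numbers do not pair the samples by the labels, and deviations of arrays with the same number correlated between -0.15 and 0.12. With the replicate number as a block, 5 members were called with siALKBH5#1 (against 8), 18 with siALKBH5#3 (against 20) and 33 between the siRNAs (against 39). The arrays cannot show protein, and 1 cell line at 1 time was read.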
